A study of Bos taurus with 8 samples.

Results

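The genes described here take iron into the cell, store it and sense it. They are the 7 genes TFRC, FTH1, FTL, ACO1, IREB2, STEAP3 and NCOA4, taken by gene symbol from a table of 14970 bovine genes, and all 7 were in it. RNA was sequenced from 8 trophectoderm outgrowths of Bos taurus, which are cultures grown from the layer that forms the fetal part of the placenta. Every outgrowth came from 1 embryo produced in vitro, and all of them were plated after hatching on day 10 on collagen IV in trophectoderm growth medium. The groups are labelled by culture time, with 4 outgrowths collected on day 35 and 4 on day 41. Apart from number 1, the sample titles carry different numbers on each day. The days thus differ in the outgrowths sampled as well as in time. No genetic change or drug was applied, and the labels give neither the breed nor the sex of the embryos nor the iron content of the medium. The deposited columns name the day and not the outgrowth, so they are lettered by column, A to D for day 35 and then E to H for day 41. Values are RPKM, reads per kilobase of exon after scaling each library to a common size.

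Cells take up most iron as transferrin, which binds the transferrin receptor (TFRC) at the surface and is carried into endosomes. There STEAP3 reduces the iron so that it can be moved into the cytosol, and iron that is not used is kept inside ferritin, a hollow shell built of heavy (FTH1) and light (FTL) chains. NCOA4 carries ferritin to lysosomes, where the iron is set free again. ACO1 and IREB2 encode the iron regulatory proteins, which bind a hairpin in certain transcripts when iron is scarce, blocking translation of ferritin and protecting the TFRC transcript from decay. In the human placenta the trophoblast passes iron from mother to fetus. TFRC lies there on the maternal side and the exporter ferroportin (SLC40A1) on the fetal side. Whether the bovine placenta has the same arrangement was not tested.

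The 8 libraries held 106402848 to 158034430 reads, recovered from the deposited RPKM. All 9 trophoblast markers were present in all of them, from KRT8 at 1699.9 to 2748 RPKM and GATA3 at 78.9 to 107 RPKM to CDX2, the lowest, at 4.47 to 10.3 RPKM. Library A stood apart: it held the lowest value of the 8 in 29.2% of the 12582 genes tested and the highest in 31.2%. The 7 yolk sac and hypoblast markers with values summed to 21.1 to 450 RPKM on day 35 and to 13.9 to 147 RPKM on day 41. The 8 stromal markers summed to 16.7 to 246 RPKM and to 2.69 to 33.7 RPKM, with the highest sum of both lists in library B. The part of these cells in the results below was not tested, and in bulk RNA fewer cells of a type and less RNA per cell cannot be told apart. Of the 8 immune markers 5 had values, and their sum of 184 to 285 RPKM on day 35 and 232 to 290 RPKM on day 41 came mostly from AIF1, at 172 to 277 RPKM. CD14 was at 7.70 to 9.17 RPKM on day 35 and at 10.9 to 14.6 RPKM on day 41, without overlap, and CD68 was at 1.76 to 2.18 RPKM. CSF1R reached at most 0.875 RPKM and CD74 at most 1.96 RPKM.

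Both ferritin chains were among the abundant transcripts. The days did not overlap in either, but neither passed the test with equal weights, and FTH1 was called lower on day 41 in the weighted fits. FTH1 (ENSBTAG00000011184, chromosome 29, 40477517 to 40480266 on the minus strand of ARS-UCD1.2) ranked 26 of all genes by its mean, and FTL (ENSBTAG00000013343, chromosome 18, 55538469 to 55540364 on the plus strand) ranked 109. Ferritin chains together made up 0.303% to 0.338% of the reads on day 35 and 0.214% to 0.276% on day 41, with no overlap. The deposited exon models span 1106 bases in 3 blocks for FTH1 and 933 bases in 4 blocks for FTL. Mammalian ferritin genes have processed copies elsewhere in the genome, and how the authors' counting divided reads among them is not given in the sources used here, so the level of each chain is uncertain to that extent.

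FTH1, whose chain oxidises iron for storage, was at 2165, 2325, 2349 and 1969.8 RPKM in libraries A to D and at 1536, 1562, 1327 and 1882 RPKM in libraries E to H. Every day 35 library lay above every day 41 library, although H came close to D. The means were 2202 ± 175 and 1577 ± 229 RPKM (SD, n = 4 per day), a ratio of 0.716. The log2 fold change was -0.49 (SE 0.15, 95% interval -0.84 to -0.14, adjusted p = 0.295 by limma-trend). With libraries weighted by quality it was -0.53 by limma-voom (adjusted p = 0.0339) and -0.54 by limma-trend with array weights (adjusted p = 0.0268). The weighted fits gave library A a weight of 0.133 and 0.128, the smallest of the 8. Library E had the largest, 3.15 and 4.00, so day 41 leans on that library in every weighted fit given here. Without library A the equal-weight estimate was -0.50 (adjusted p = 0.120).

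FTL, whose chain helps iron to form its mineral core, was at 1275, 774, 801 and 788 RPKM in libraries A to D and at 766, 548, 707 and 718 RPKM in libraries E to H. The days did not overlap here either, but B and E were close, and library A was far above the rest. The means were 909 ± 244 and 685 ± 94.6 RPKM. The log2 fold change was -0.39 (SE 0.19, 95% interval -0.83 to 0.05, adjusted p = 0.487 by limma-trend). Without library A it was -0.21 (adjusted p = 0.367), and in the quality-weighted limma-voom fit -0.17 (adjusted p = 0.369). FTL did not pass in any of these fits.

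**Figure D1:**
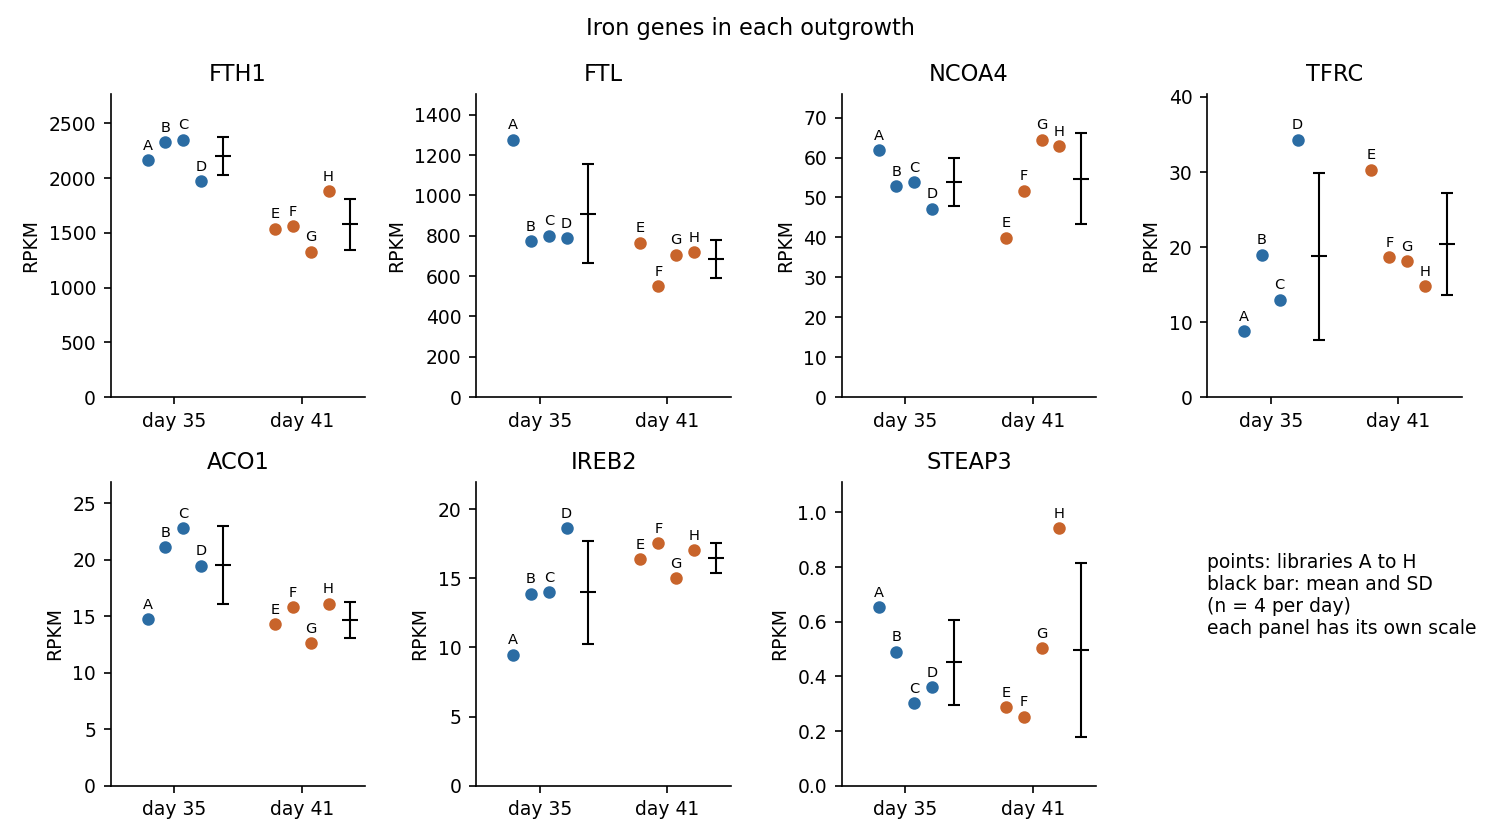
RPKM of the 7 iron genes (y axis, a separate scale starting at 0 in each panel) in the 4 libraries of day 35 and the 4 of day 41, with the mean and SD as a black bar. FTH1 and FTL do not overlap between the days, from 1969.8 to 2349 RPKM against 1327 to 1882 RPKM for FTH1, and library A stands alone at 1275 RPKM for FTL.

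NCOA4 (ENSBTAG00000019565, chromosome 28, 44036736 to 44059067), the receptor that sends ferritin to the lysosome, did not follow the ferritin chains. Its levels were 61.9, 52.8, 53.8 and 47.1 RPKM on day 35, followed by 40.0, 51.6, 64.4 and 62.8 RPKM on day 41. The day 41 values spread on both sides of the day 35 values, with E the lowest of the 8 and G the highest. The means were 53.9 ± 6.08 and 54.7 ± 11.3 RPKM, with a log2 fold change of 0.003 (SE 0.16, 95% interval -0.36 to 0.36, adjusted p = 0.996 by limma-trend).

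TFRC (ENSBTAG00000032719, chromosome 1, 70652654 to 70679923 on the minus strand, 19 exon blocks) varied most between outgrowths among the tested members. It was at 8.79, 19, 13 and 34.3 RPKM in libraries A to D and at 30.3, 18.6, 18.1 and 14.8 RPKM in libraries E to H. Libraries D and E, of different days, were the highest, and A was the lowest. The highest library exceeded the lowest by a factor of 3.90, against a median factor of 1.74 over all tested genes without a 0. These values rest on 2666 to 11960 reads per library, so counting error is small beside the spread. The means were 18.8 ± 11.2 and 20.5 ± 6.78 RPKM, with a log2 fold change of 0.24 (SE 0.38, 95% interval -0.62 to 1.09, adjusted p = 0.856 by limma-trend). The interval spans a fall and a rise of TFRC, and single libraries moved the estimate: by limma-trend it was -0.05 without A, the only library whose removal turned the sign, 0.04 without E and 0.57 without D (adjusted p = 0.956, 0.990 and 0.438). With quality weights in limma-voom it was 0.43 (adjusted p = 0.444).

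STEAP3 (ENSBTAG00000007111, chromosome 2, 71009555 to 71061343), the endosomal iron reductase of red cell precursors, was close to the limit of what was tested. It was at 0.653, 0.490, 0.301 and 0.360 RPKM on day 35 compared with 0.287, 0.253, 0.504 and 0.942 RPKM on day 41, from 168 to 742 reads per library. Only A, G and H reached 0.5 RPKM, where 4 libraries were required, so STEAP3 was left out of the fit. The days overlapped, with means of 0.451 ± 0.156 and 0.496 ± 0.317 RPKM and a difference of 0.03 in log2(RPKM + 1) (exact permutation p = 0.943, two-sided, n = 4 per day, smallest possible p 0.0286). The related reductases STEAP1 and STEAP2, named here after their values were seen, had means of 0.181 and 0.239 RPKM on day 35 compared with 0.282 and 0.407 RPKM on day 41, and neither reached the filter.

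Of the genes for the iron regulatory proteins, ACO1 was called lower on day 41 in the weighted fits and not with equal weights, and IREB2 was called in none. ACO1 (ENSBTAG00000000555, chromosome 8, 11611595 to 11674522), which is a cytosolic aconitase when it holds an iron-sulphur cluster and binds RNA when it has lost it, was at 14.7, 21.1, 22.8 and 19.4 RPKM in libraries A to D. On day 41 it was at 14.3, 15.8, 12.6 and 16.1 RPKM. Libraries B, C and D lay above all 4 day 41 libraries, while A lay among them. The means were 19.5 ± 3.45 and 14.7 ± 1.60 RPKM, a ratio of 0.753, with a log2 fold change of -0.38 (SE 0.14, 95% interval -0.70 to -0.05, adjusted p = 0.366 by limma-trend). With quality weights it was -0.55 by limma-voom (adjusted p = 0.0267) and with array weights -0.53 by limma-trend (adjusted p = 0.0162). Without library A the equal-weight estimate was -0.50 (adjusted p = 0.0848).

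IREB2 (ENSBTAG00000002504, chromosome 21, 30828476 to 30879177), whose protein is destroyed when iron is plentiful, was at 9.47, 13.9, 14 and 18.6 RPKM on day 35. On day 41 it was at 16.4, 17.5, 15 and 17 RPKM. The day 41 libraries lay close together, above A, B and C and below D. The means were 14 ± 3.73 and 16.5 ± 1.10 RPKM, with a log2 fold change of 0.25 (SE 0.17, 95% interval -0.14 to 0.65, adjusted p = 0.614 by limma-trend). The estimate ranged from 0.09 without A to 0.39 without D.

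The transcripts of the 2 regulators were compared in each library as the ratio of their RPKM. This ratio does not depend on the scaling of the library, and it does not show the amount or activity of the proteins. IREB2 over ACO1 was 0.642, 0.658, 0.615 and 0.957 in libraries A to D and 1.14, 1.11, 1.19 and 1.06 in libraries E to H. In RPKM all 4 day 35 libraries had more ACO1 than IREB2, and all 4 day 41 libraries more IREB2 than ACO1. The side of 1 on which a library lies depends on the exon lengths, 3709 bases for ACO1 and 3411 for IREB2. In reads, library H of day 41 had more ACO1 (9464) than IREB2 (9211). Library A belonged with B and C in this ratio, although it was lower than both in each gene. The ratio was formed from members chosen with these data in view, so it is given as a description without a test. How often the ratios of other gene pairs separate the days was not counted.

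FTL over FTH1 was 0.589, 0.333, 0.341 and 0.400 on day 35 and 0.499, 0.351, 0.533 and 0.381 on day 41. The heavy chain transcript was thus the more abundant in all 8 libraries, by factors of 1.70 to 3.00 in RPKM, and the days overlapped. TFRC was far below both chains: FTH1 exceeded it by a factor of 246 in library A, the highest, and of 50.7 in library E, the lowest. The ratio of TFRC to FTH1 overlapped between the days, with libraries B and D of day 35 above library H of day 41.

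**Figure D2:**
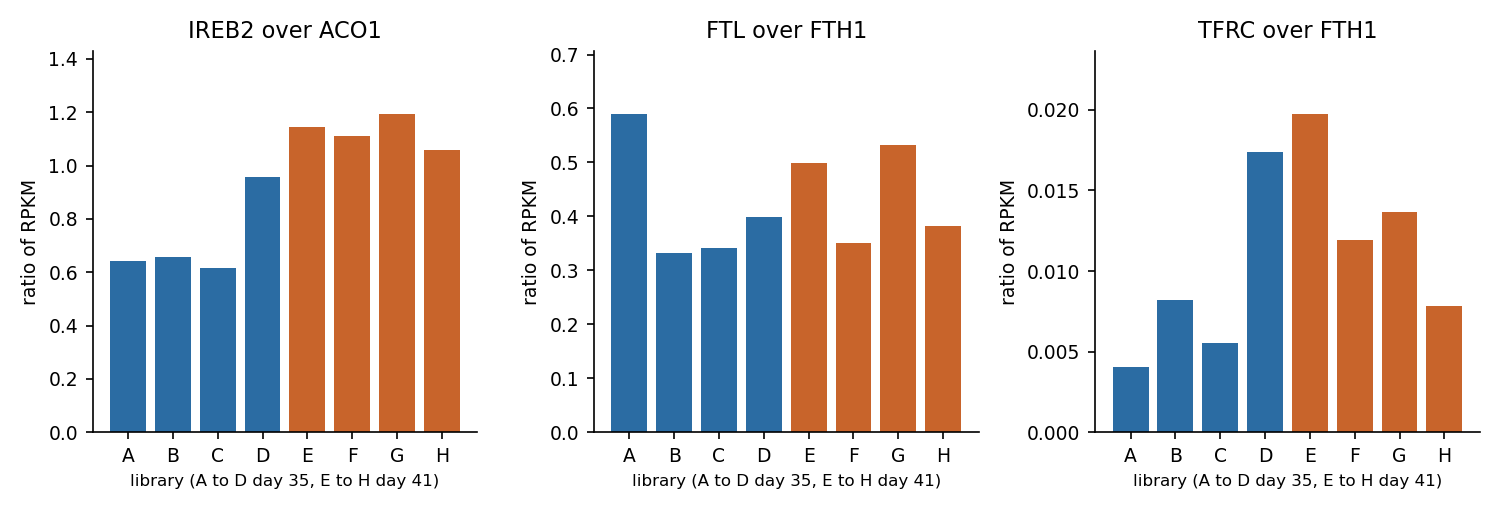
Ratios of RPKM within each library (bars from 0, blue for day 35 and orange for day 41) for IREB2 over ACO1, FTL over FTH1 and TFRC over FTH1. IREB2 over ACO1 lies at 0.615 to 0.957 on day 35 and at 1.06 to 1.19 on day 41, while the other ratios overlap between the days.

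Ordered by level per length, the members ran FTH1, FTL, NCOA4, TFRC, ACO1, IREB2 and STEAP3. The first 3 steps and the last held in all 8 libraries, and the ranges of those neighbours did not overlap. TFRC, ACO1 and IREB2 could not be ordered by their spread: TFRC was above ACO1 in 1 day 35 library and 3 day 41 libraries, and ACO1 was above IREB2 in 4 day 35 libraries and 0 day 41 libraries. The median tested gene had a mean of 10.1 RPKM, so these 3 genes were somewhat above it.

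In the fit over all genes, 0 of the 6 members tested passed the threshold of limma-trend with equal weights, an adjusted p under 0.05, where 0.0477% of tested genes did (0.0159% lower on day 41 and 0.0318% higher). Without library A it was again 0, where 0.344% of genes passed (0.144% lower and 0.2% higher). By limma-voom with equal weights the number was also 0, where 2 of 12582 tested genes were called. At an unadjusted p under 0.05 by limma-trend, 2 members (FTH1 and ACO1) had lower values on day 41 and 0 had higher ones, where 11.7% of tested genes had such a p (5.82% lower and 5.9% higher). The days did not overlap in 2 members, FTH1 and FTL, both lower, where 8.2% of tested genes did not overlap (3.94% lower and 4.26% higher). With quality weights in limma-voom 2 of the 6 were called, FTH1 and ACO1, both lower, where 5.18% of tested genes were called (2.23% lower and 2.96% higher). With array weights in limma-trend the same 2 members were called, where 8.3% of tested genes were (3.59% lower and 4.71% higher). By the authors' deposited table none of the members had an FDR under 0.05, where 1.08% of genes were lower and 0.675% higher at that FDR, and FTH1 had the smallest with 0.122 at a log2 fold change of -0.48. That table gives ACO1 a log2 fold change of -0.42 with an FDR of 0.215, and TFRC one of 0.28 with an FDR of 0.900.

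**Figure D3:**
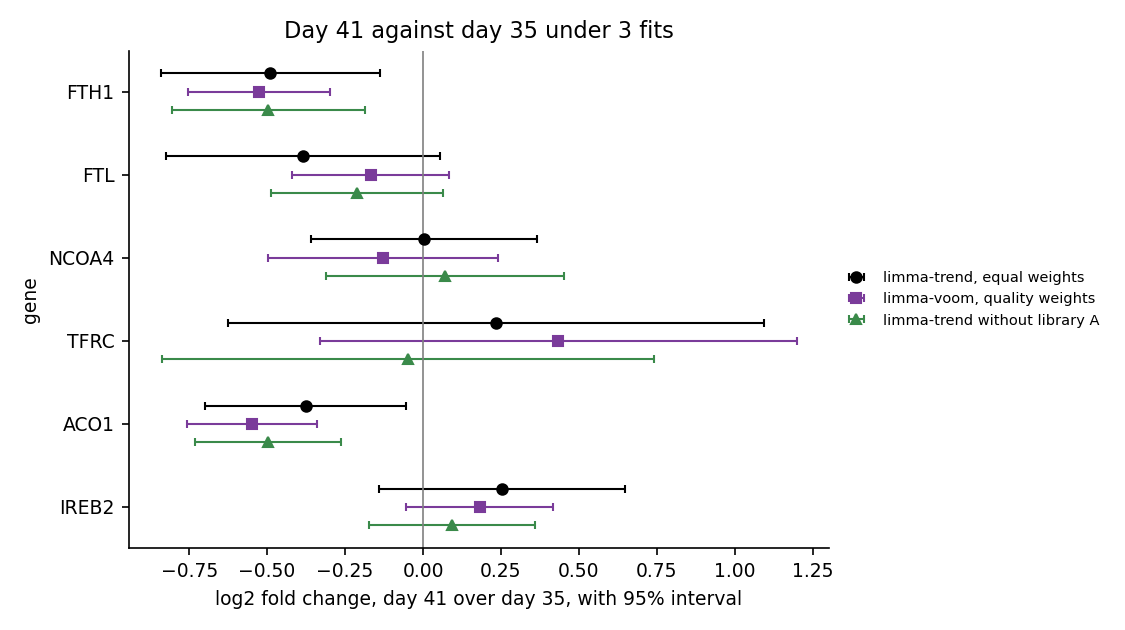
Log2 fold change of day 41 over day 35 (x axis, on log2(RPKM + 1) for limma-trend and on log2 reads scaled to library size for limma-voom) with 95% intervals for the 6 members tested, with equal weights, with quality weights and without library A. The intervals of FTH1 and ACO1 lie below 0 in the 3 fits shown, while TFRC turns from 0.24 to -0.05 without library A.

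Across the 8 libraries 21 pairs of members were compared by correlation of log2(RPKM + 1), with exact permutation tests of all 40320 pairings. After Benjamini-Hochberg adjustment over the pairs, 0 passed, and 5 had an unadjusted p under 0.05 (exact permutation, Pearson's r). FTH1 and ACO1 had r = 0.82 (exact permutation p = 0.0172, adjusted p = 0.172) and Spearman's rho = 0.86 (exact permutation p = 0.0107, adjusted p = 0.225). Without E and G, the libraries farthest from the FTH1 median, r was 0.62 (exact permutation p = 0.174), and for deviations from the mean of each day it was 0.57. TFRC and NCOA4 ran opposite to each other, with r = -0.75 (exact permutation p = 0.0328, adjusted p = 0.172) and rho = -0.74 (exact permutation p = 0.0458, adjusted p = 0.241). Without A and D this r was -0.75 (exact permutation p = 0.108), and within day means it was -0.77. TFRC and IREB2 had r = 0.78 (exact permutation p = 0.0206, adjusted p = 0.172) and rho = 0.60 (exact permutation p = 0.132, adjusted p = 0.556), but r was 0.28 without A and D, so this relation rests on those libraries. FTL and IREB2 had the largest absolute r of the 21 pairs, -0.84 (exact permutation p = 0.0272, adjusted p = 0.172), with rho = -0.52 (exact permutation p = 0.197, adjusted p = 0.686). Without A and F this r was -0.10 (exact permutation p = 0.833), so it too rests on 2 libraries. STEAP3 and NCOA4 had r = 0.71 (exact permutation p = 0.0485, adjusted p = 0.204) and rho = 0.76 (exact permutation p = 0.0368, adjusted p = 0.241), with r = 0.60 without A and H (exact permutation p = 0.231). For TFRC and FTH1, r was -0.38 (exact permutation p = 0.360, adjusted p = 0.629) and rho -0.31 (exact permutation p = 0.462, adjusted p = 0.808), with r = -0.50 without A and D (exact permutation p = 0.311). With 4 libraries, each day alone holds too few for a correlation.

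Among 11031 tested genes with a symbol of their own, the 3 whose log2(RPKM + 1) followed TFRC most closely over the 8 libraries were CGN, XIAP and FUBP3, with r of 0.96, 0.95 and 0.95 and rho of 0.98, 0.93 and 0.88. CGN, the tight junction protein cingulin, moved over a narrow range, from 112 to 149 RPKM. The genes nearest to FTH1 were SLC34A2, a phosphate carrier (r = 0.97, rho = 0.95), ADAM8, a membrane protease (r = 0.97, rho = 0.90), and PDIA5, a disulphide isomerase (r = 0.95, rho = 0.98). SLC34A2 had means of 24.1 RPKM on day 35 compared with 9.83 RPKM on day 41, and ADAM8 of 7.62 against 2.60 RPKM. Nearest to STEAP3 were EDN1, SLC5A2 and CYP39A1, with r of 0.97, 0.96 and 0.95. These are the closest of many genes over few libraries that share depth and scaling, and are given as a description.

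The wider set of iron genes held 87 symbols in 7 lists, the members included. Of these, 79 had values and 71 were tested. By limma-trend with equal weights 0 were called. At an unadjusted p under 0.05, 6 were higher and 9 lower, together 15 of 71, beside 11.7% of all tested genes. By limma-voom with quality weights 2 were called higher and 4 lower, together 6 of 71, beside 5.18% of all tested genes. By limma-trend the estimate was below 0 for 39 of the 71, against 47.4% of all tested genes. Their median log2 fold change was -0.05, against 0.01 over all tested genes. In the authors' deposited table SLC40A1 and SLC39A8 were higher and EPAS1 lower at an FDR under 0.05, where 0.675% of genes were higher and 1.08% lower.

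Of 10 uptake genes tested, TFRC included, 0 were called with equal or with quality weights. Their estimates were above 0 for 8 and below 0 for 2, with a median of 0.15, but this split rested on library A: without it 5 were above and 5 below (47.7% of all tested genes below), and with quality weights 6 were above and 4 below (also 47.7% of all genes below). The 2 genes with estimates below 0, named here after their values were seen, were STEAP4, a metal reductase, at 3.77 ± 1.46 and 2.45 ± 2.23 RPKM, and MCOLN1, a lysosomal channel, at 42.7 ± 7.86 and 31.1 ± 6.97 RPKM. SLC11A2, which moves ferrous iron out of endosomes, was at 18.7, 20.2, 25.1 and 23.5 RPKM on day 35 compared with 26.9, 25.8, 19.8 and 26.1 RPKM on day 41 (log2 fold change 0.17, adjusted p = 0.670 by limma-trend). SLC39A14, a carrier of iron that is not bound to transferrin, was at 7.47 ± 0.666 and 9.05 ± 0.281 RPKM without overlap (0.25, adjusted p = 0.350). SLC39A8, a related metal carrier, was at 8.16, 18.8, 23.9 and 12.5 RPKM on day 35 compared with 18.8, 26.0, 49.0 and 43.8 RPKM on day 41. Libraries G and H were the highest in SLC39A8 and A the lowest, and the log2 fold change was 1.07 (adjusted p = 0.337 by limma-trend, FDR 0.0165 in the authors' deposited table). With quality weights in limma-voom it was 0.43 (adjusted p = 0.462) and with array weights in limma-trend 0.33 (adjusted p = 0.532). LRP1, the receptor for haem bound to hemopexin, was at 25.3 ± 11.1 and 43.0 ± 4.39 RPKM without overlap (0.85, adjusted p = 0.335), from 12.2 RPKM in library A. TFR2, the second transferrin receptor, did not exceed 0.0787 RPKM.

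TF, the gene of transferrin itself, differed more between outgrowths than any member. It was at 0.0134, 87.7, 7.70 and 1.52 RPKM in libraries A to D and at 31.9, 16.9, 0.623 and 1.65 RPKM in libraries E to H. The high libraries B, E and F came from both days, and the log2 fold change was 0.09 (SE 1.46, adjusted p = 0.990 by limma-trend). AFP, a yolk sac marker, was at 0, 95.4, 5.75 and 3.11 RPKM in libraries A to D and at 59.6, 21.2, 1.07 and 0.401 RPKM in libraries E to H. TTR, another one, was at 9.20, 8.92 and 4.15 RPKM in B, E and F and at most at 0.613 RPKM elsewhere. The libraries high in TF were those high in AFP and TTR, and APOB was also highest in B, E and F. The other markers of that list with values, APOA1, GATA4, GATA6 and SOX17, had other orders. APOA1 was at 42.4 RPKM in F, below 73.4 RPKM in C, and SOX17 was highest in G at 2.15 RPKM. Whether yolk sac cells are the source of TF was not tested. TFRC did not share the order of TF, with 34.3 RPKM in library D, where TF was at 1.52 RPKM.

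**Figure D4:**
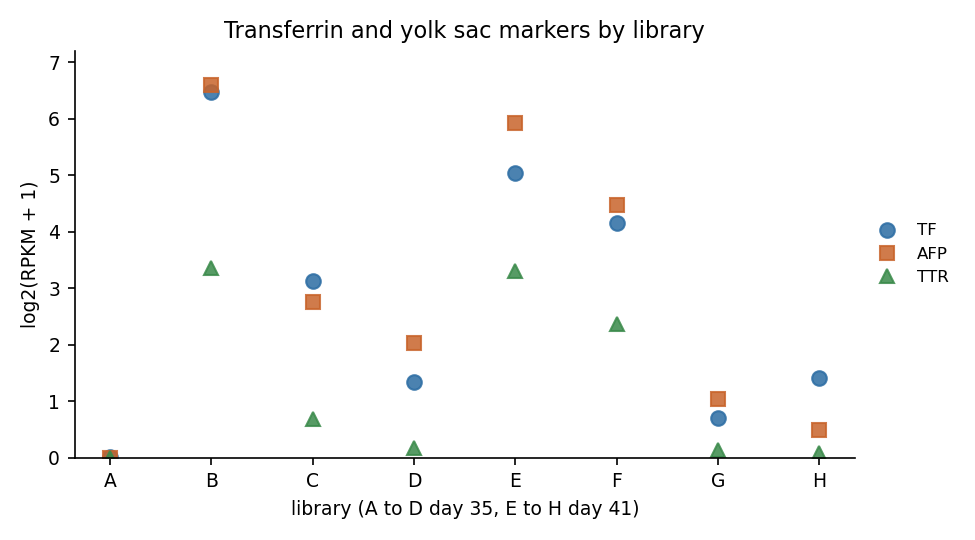
Level of TF and of the yolk sac markers AFP and TTR in each library, as log2(RPKM + 1) on the y axis. Libraries B, E and F are the highest of the 8 in all 3 genes, and AFP and TTR are at 0 in library A.

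Among the tested genes of export and its control, SLC40A1 had the smallest unadjusted p by limma-trend, 0.00199. SLC40A1, ferroportin, the exporter of iron from cells, was at 29.5, 25.9, 31.6 and 39.3 RPKM on day 35 compared with 50.8, 43.6, 74.6 and 53.0 RPKM on day 41. Every day 41 library lay above every day 35 library, as in 4.26% of all tested genes. Its log2 fold change was 0.78 (SE 0.18, adjusted p = 0.204 by limma-trend), and 0.76 with quality weights in limma-voom (adjusted p = 0.0362), with an FDR of 0.00432 in the authors' deposited table. The haem oxygenases release iron from haem. HMOX2 was at 175 ± 26.1 and 130.5 ± 14.4 RPKM without overlap (-0.41, adjusted p = 0.286 by limma-trend, 0.0469 by limma-voom with quality weights). HMOX1, the inducible form, was at 24.0, 23.4, 12.9 and 11.1 RPKM on day 35 compared with 14.5, 13.6, 4.09 and 4.10 RPKM on day 41 (-1.03, adjusted p = 0.417 by limma-trend), and its estimate was -0.65 with quality weights in limma-voom (adjusted p = 0.403) and -0.50 with array weights in limma-trend (adjusted p = 0.448). Of the 7 genes of export and its control that were tested, 4 had estimates above 0 and 3 below. HAMP, the hormone hepcidin, was not analysed here.

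Genes around the ferritins and the regulators gave mixed values. The poly(C)-binding proteins PCBP1 and PCBP2, which hand iron to ferritin, were at 99.5 ± 7.10 and 135 ± 17.3 RPKM on day 35 compared with 98.5 ± 6.04 and 138 ± 4.65 RPKM on day 41. Both were highest in library A, at 110 and 161 RPKM. FBXL5, the iron sensor that marks IREB2 protein for destruction, was at 21.4 ± 3.76 and 18.2 ± 2.66 RPKM (log2 fold change -0.22, adjusted p = 0.609 by limma-trend). EPAS1, a hypoxia-inducible factor whose human transcript carries the hairpin, was at 81.3, 85.4, 59.3 and 69.4 RPKM on day 35 compared with 62.6, 31.9, 36.7 and 37.2 RPKM on day 41. Only library E overlapped with day 35, and EPAS1 had a log2 fold change of -0.83 (adjusted p = 0.223 by limma-trend, FDR 0.000317 in the authors' deposited table). It was -0.52 with quality weights in limma-voom (adjusted p = 0.213) and -0.44 with array weights in limma-trend (adjusted p = 0.249). CDC14A, a phosphatase whose human transcript also has one, was at 0.969 ± 0.179 and 1.38 ± 0.139 RPKM without overlap (0.28, adjusted p = 0.367).

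Iron-sulphur clusters and haem are the main uses of iron in the cell. Of 21 mitochondrial genes of iron import and cluster assembly, 7 had estimates above 0 and 14 below, with a median of -0.11. Without library A 9 were above and 12 below. Over all tested genes 47.4% of estimates were below 0, and 47.7% without library A. CISD3, a mitochondrial cluster protein, was at 6.98 ± 1.46 and 4.06 ± 0.536 RPKM (log2 fold change -0.65, adjusted p = 0.204 by limma-trend, 0.0357 by limma-voom with quality weights). BOLA3, a late assembly factor, was at 5.05 ± 0.663 and 3.57 ± 0.411 RPKM (-0.40, adjusted p = 0.266 by limma-trend), and neither gene overlapped between the days. The scaffold ISCU was at 43.3 ± 5.34 and 34.1 ± 5.83 RPKM (-0.34, adjusted p = 0.390).

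Of 9 cytosolic cluster genes, 3 had estimates above 0 and 6 below, which became 6 above and 3 below without library A, and 0 had an unadjusted p under 0.05. CIAO1 was at 15.5 ± 2.07 and 18.2 ± 0.632 RPKM, CIAO2B at 36.4 ± 8.04 and 30.2 ± 1.08 RPKM, and NDOR1 at 8.19 ± 0.836 and 7.74 ± 0.589 RPKM. Of 9 haem synthesis genes, 2 had estimates above 0 and 7 below, also without library A, and 0 had an unadjusted p under 0.05 by limma-trend. Both lists stand beside 47.4% of all tested genes with estimates below 0, and 47.7% without library A. ALAS1, the first enzyme of the route outside red cells, was at 96.7 ± 5.35 and 92.5 ± 9.42 RPKM. ALAD, which makes porphobilinogen, was at 149 ± 36.3 and 216 ± 71.1 RPKM (0.51, adjusted p = 0.456), with 317 RPKM in library G, and limma-trend with array weights called it higher (adjusted p = 0.0376). UROS was at 2.62 ± 0.250 and 2.23 ± 0.402 RPKM and UROD at 12.3 ± 2.55 and 9.88 ± 1.34 RPKM.

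**Figure D5:**
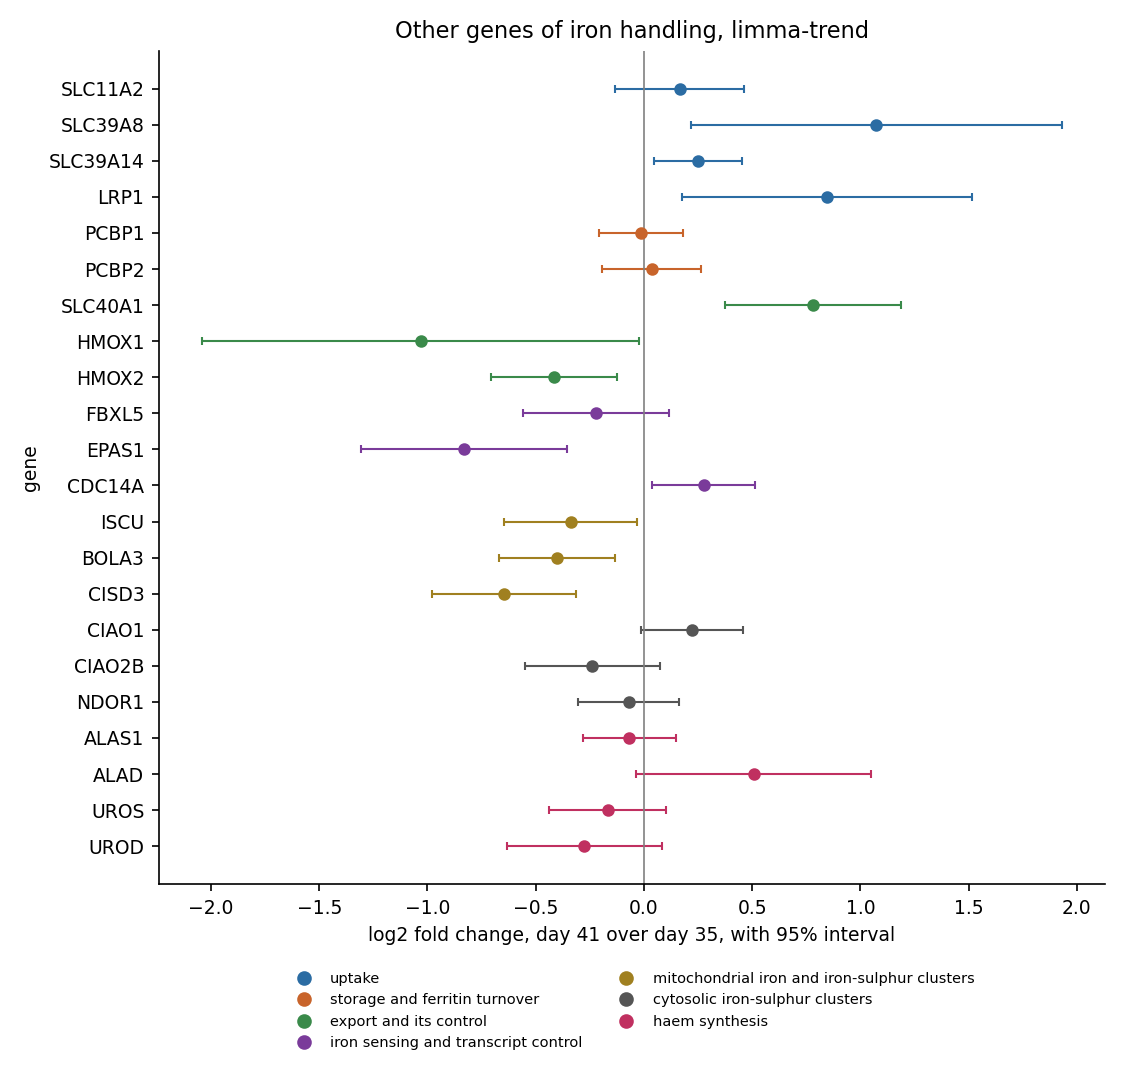
Log2 fold change of day 41 over day 35 on log2(RPKM + 1), with 95% intervals by limma-trend, for 22 named iron genes outside the members, coloured by list. SLC40A1 lies at 0.78 and EPAS1 at -0.83, none passes the adjusted threshold, and TF is left out because its interval is wider than the axis.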

How the data were processed

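RNA from 8 outgrowths was sequenced by the submitters, whose processing notes name FastQC, HISAT2, featureCounts and edgeR and the build ARS-UCD1.2. Strand setting and versions are not given in the sources used here. The authors deposited RPKM per library, and per the file headers a log2 fold change, a likelihood ratio score, and a p-value and FDR per gene. RPKM times exon length was a whole multiple of 1 step per library within 0.01 for 100% of values, which gave the reads. No gene of the table overlapped a member.

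The days were compared over all genes by limma-trend (limma 3.58.1, R 4.3.3) on log2(RPKM + 1), for genes at 0.5 RPKM or more in at least 4 libraries, two-sided, with a Benjamini-Hochberg adjusted p under 0.05. Adding 1 understates changes of low genes. This test was tested on simulated data. There the spread of a gene was alike in all libraries, so a library such as A was not covered. Changes as small as the members' estimates were not simulated either. Correlations and figures used Python 3.11.15. Alternatives were other scalings, filters, pseudocounts, limma-voom, weights and leaving out each library. Named genes were the members, 3 per list with the smallest p, a fixed set of 13 and the nearest 3 genes to TFRC, FTH1 and STEAP3; 2 genes that this rule picks are not reported here. Members and lists were chosen with earlier results of these data known. Outgrowths came from individual embryos, so p-values measure spread between outgrowths. In that spread embryo, culture, cell composition and library quality cannot be told apart. The number 1 stands in a sample title of each day, and whether these samples share an embryo is not given. The tests treat all libraries as independent. Reads carried no molecular identifiers.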

Additional observations from a re-analysis of the deposited data

Results flagged for a closer look

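In 68 groups of 4 libraries (31 named genes and 3 ratios on 2 days), 6 had 1 library far from the other 3 by Dixon's criterion at the 95% level, and chance alone marks about 1 group in 20. FTL was at 1275 RPKM in library A, against at most 801 RPKM in the other day 35 libraries. PCBP1 and PCBP2 were also highest in library A on day 35, at 110 RPKM against 96.7 RPKM and at 161 RPKM against 130 RPKM for the next library. TF was at 87.7 RPKM in library B, against 7.70 RPKM in the next. SLC11A2 was at 19.8 RPKM in library G, against 25.8 RPKM in the next lowest library of day 41. IREB2 over ACO1 was 0.957 in library D, against 0.658 in the next of day 35.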

How the results depend on the processing

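With equal weights 6 genes were called over all genes. The count was 3 without a filter and with a pseudocount of 0.1, 2 by limma-voom, 652 with quality weights, 1044 with array weights, 14 at a threshold of 0.1, and 0 to 43 when 1 library was left out. For the members the count of 0 became 2 with quality weights and with array weights. Among the 71 iron genes tested it became 6 and 7, where 5.18% and 8.3% of all tested genes were called. Both counts were 0 under every other alternative, leaving out each library included. FTH1, FTL, ACO1 and IREB2 kept their direction in all 19 alternatives, with leave-one-out ranges of -0.58 to -0.41, -0.45 to -0.21, -0.50 to -0.30 and 0.09 to 0.39. Some of the alternatives, such as the other filters and the other threshold, could not change an estimate. TFRC ranged from -0.048 to 0.57 when 1 library was left out. NCOA4 turned to -0.015 with upper-quartile factors, -0.13 with quality weights and -0.17 with array weights, and ranged from -0.082 to 0.14 without 1 library. TF turned to -0.025 with quality weights and ranged from -0.81 to 1.34. PCBP1 turned to 0.014 with library totals, 0.016 with quality weights and 0.015 with array weights, and ranged from -0.052 to 0.036. PCBP2 ranged from -0.0027 to 0.12. The cause of these turns was not tested. No paired analysis was possible because the columns carry no outgrowth number.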
